A study of Homo sapiens with 3 samples.

Results

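The transcripts of 10 genes of glucose uptake and glycolysis were followed in Caki-1 renal carcinoma cells after depletion of *RBCK1*. They were *SLC2A1*, *HK1*, *HK2*, *PFKL*, *ALDOA*, *GAPDH*, *PGK1*, *ENO1*, *PKM* and *LDHA*. They were taken by symbol from a deposited table, 10 of its 44591 genes. Each symbol matched 1 row, and all 10 genes passed the low-level filter, an average of 1 RPKM or more across libraries. RPKM is a read number divided by the length of the gene and the size of the library.

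Glycolysis splits glucose into pyruvate in the cytosol and yields ATP and NADH. *SLC2A1* encodes GLUT1, a transporter that lets glucose cross the plasma membrane, and hexokinases trap it inside the cell as glucose 6-phosphate. Phosphofructokinase carries out the committed step, aldolase cleaves the resulting bisphosphate, and the enzymes from GAPDH to pyruvate kinase recover ATP. Lactate dehydrogenase A turns pyruvate into lactate and regenerates NAD+. In clear cell renal carcinoma these genes are known for their response to hypoxia-inducible factors, which accumulate when VHL is lost. Whether VHL was lost in the cells studied here was not tested.

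The Caki-1 line is an established human cell line that the labels give as clear cell renal cell carcinoma, and the methods describe its p53 as wild type. The groups were cells given a control siRNA (si-Control) and cells given si-RBCK1 #1 or si-RBCK1 #2, siRNAs of different sequence against *RBCK1* that are named after HOIL-1, another name of the protein, in the labels. RBCK1 is a ubiquitin ligase subunit of the linear ubiquitin chain assembly complex. The cells of all 3 groups were transfected and harvested after 48 h, and no other allele or agent is given for any group. There was 1 library per group, so none of the differences could be checked against replicates and no p-value was computed. Both si-RBCK1 libraries were set against the same si-Control library, and their directions are therefore not independent. The study asked, among other things, whether RBCK1 depletion affects glucose metabolism, and the comparisons below describe the transcripts of that pathway only.

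The libraries held 36926834 reads with si-Control, 40442939 with si-RBCK1 #1 and 36344428 with si-RBCK1 #2, as found from the steps between low RPKM values. The targeted gene *RBCK1* was at 33.3 RPKM, 9.97 RPKM and 12.3 RPKM in that order, or 29.9% and 36.8% of si-Control. Of 8 markers of renal epithelium and carcinoma, 6 were at or above 1 RPKM in every library, and the summed level of the 8 was 1114 RPKM, 2039 RPKM and 2043 RPKM. *CA9* (1, 4 and 1 reads) and *EPCAM* (21, 39 and 27 reads) were near 0. *VIM* (664 RPKM, 1512 RPKM and 1392 RPKM) made up most of the difference in that sum, and its part in the results below was not tested. Among markers of other cells, *PTPRC*, *PECAM1*, *VWF*, *DCN* and *LUM* were at most at 0.245 RPKM, while *CD68*, a lysosomal protein gene, was at 41.8 to 52.3 RPKM and *COL1A1* at 3.21 to 4.68 RPKM. In RNA from a whole culture, fewer cells with a transcript and less of it per cell cannot be told apart.

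The sense strands of both siRNAs are shown because the guide strand of an siRNA can also pair with other transcripts through its positions 2 to 8, called the seed. Capitals mark the bases that pair with the seed, written 5′ to 3′.
si-RBCK1 #1: ggtgcaccttcATCAACAa
si-RBCK1 #2: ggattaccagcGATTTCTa
The 7-base match of si-RBCK1 #1 occurred in the longest protein-coding transcript (GENCODE v29, GRCh38) of 4386 of 19669 genes (22.3%), and that of si-RBCK1 #2 in 5089 (25.9%). Of the 10 glycolysis genes, 2 held a match for each siRNA. For si-RBCK1 #1 these were both hexokinases, and the 19 bases that line up with the sense strand are shown with the match in capitals.
*HK1*: ggcagatgtgcATCAACAt
*HK2*: ccggctggccgATCAACAc
Both matches lay inside the longest open reading frame, at bases 2610 to 2616 of the *HK1* transcript and 1994 to 2000 of the *HK2* transcript. The *HK1* stretch shared 12 of 19 bases with the sense strand, and the *HK2* stretch shared 9. For si-RBCK1 #2 the matches were in *HK1* and *PGK1*, both outside the open reading frame. A match is a description of sequence, and whether either siRNA acted on these transcripts was not tested.

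The 10 genes were abundant and spanned a wide range of levels. Together they held 410582 reads with si-Control, 614617 with si-RBCK1 #1 and 549772 with si-RBCK1 #2, which was 1.11%, 1.52% and 1.51% of all reads. On the length-scaled RPKM scale their sum was 4228, 5759 and 5648. *GAPDH* had the highest level in each library and ranked 20, 16 and 17 among protein-coding genes. *HK2* had the lowest level in each and ranked 4619, 7396 and 5475.

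In si-Control the order of the RPKM levels was *GAPDH*, *LDHA*, *PKM*, *ENO1*, *ALDOA*, *PGK1*, *HK1*, *SLC2A1*, *PFKL* and *HK2*. The counting intervals of *ALDOA* and *PGK1* overlapped there, as did those of *HK1* and *SLC2A1*, and those of the other neighbours did not. The order was the same with si-RBCK1 #1. With si-RBCK1 #2, *PKM* stood above *LDHA* and *SLC2A1* stood above *HK1*. In both si-RBCK1 libraries the intervals of all neighbours were apart. These intervals of levels are exact Poisson intervals (95%) on the reads of each library. Those given below for ratios between libraries are exact Clopper-Pearson intervals (95%) on reads. Both kinds cover counting error only.

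**Figure D1:**
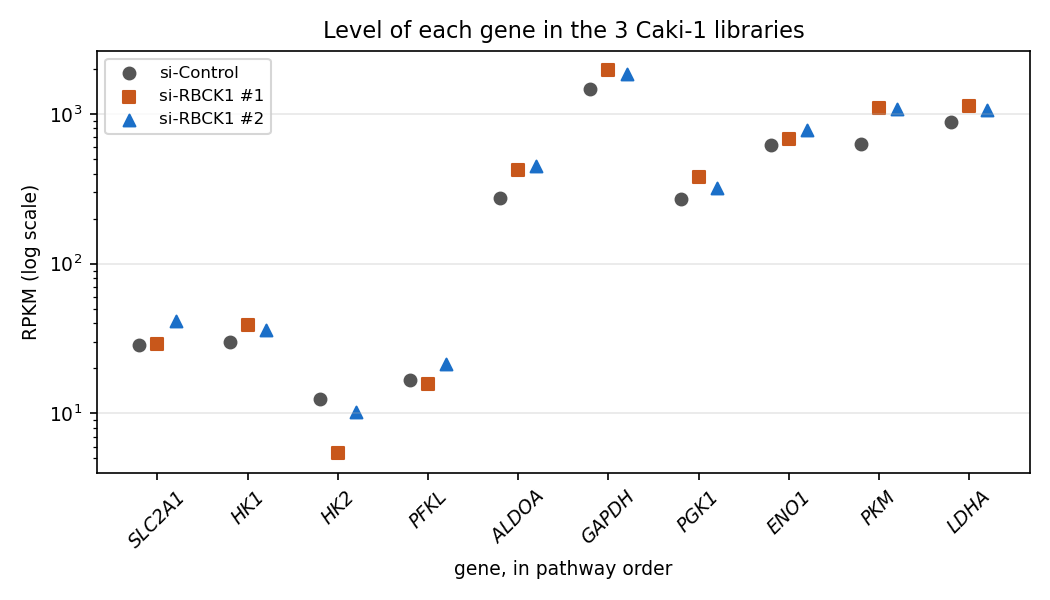
RPKM (log scale) of each of the 10 genes, in pathway order, with 1 point per library. The 6 genes from *ALDOA* to *LDHA* lie between 271 and 1969.6 RPKM, and the other 4 lie between 5.41 and 41.2 RPKM.

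The genes from aldolase onward were higher in both si-RBCK1 libraries than in si-Control, apart from *ENO1* with si-RBCK1 #1 when the libraries were scaled to equal *RPLP0* (-0.14), and the genes of entry and early steps were not uniform. The median log2 ratio over the 10 genes was 0.36 with si-RBCK1 #1 and 0.33 with si-RBCK1 #2. Over all 12403 genes that passed the filter it was 0.02 and 0.03, with quartiles of -0.31 and 0.33 for si-RBCK1 #1 and -0.26 and 0.33 for si-RBCK1 #2. The 564 genes that averaged 100 RPKM or more, a set chosen after seeing the data, had medians of 0.20 and 0.13. The upper quartiles of that set were 0.44 and 0.37. *PKM* and *ALDOA* lay above both, and *GAPDH* (0.43 and 0.34) lay below both. All ratios here were computed as log2 of RPKM + 1, so that the ratios of low genes are drawn towards 0. The counting intervals given with them come from reads without a pseudocount, so those of low genes are not centred on the printed ratio.

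By the 2-fold limit, 1 of the 10 genes (*HK2*) was lower with si-RBCK1 #1, where 3.27% of all genes tested were lower and 6.18% passed the limit in either direction. With si-RBCK1 #2, 0 of the 10 genes passed it, against 4.76% of all genes (2.27% lower), and 0 did so in both libraries, against 2.87%. At a limit of 1.5-fold, 3 of the 10 genes passed with si-RBCK1 #1, against 23.7% of all genes in either direction. With si-RBCK1 #2, 2 passed, both higher, against 20.6% in either direction (11.3% higher and 9.32% lower). *ALDOA* and *PKM* (2 genes) were higher in both at that limit, as were 7.47% of all genes. A ratio above 0 was seen for 8 of the 10 genes with si-RBCK1 #1 and 9 with si-RBCK1 #2, against 51.5% and 53.5% of all genes. It was above 0 in both for 8, against 43.3% of all genes and 58% of those that averaged 100 RPKM or more. The exceptions were *HK2* and *PFKL*. The number was 7 when libraries were scaled to equal total RPKM, where *SLC2A1* dropped out, and 6 when they were scaled to equal *RPLP0*, where *ENO1* dropped out as well. The latter scaling moved the median of all genes by -0.22 and -0.12. The 10 genes were chosen with earlier results of these data known, and both ratios share si-Control, so these shares are descriptive only.

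**Figure D2:**
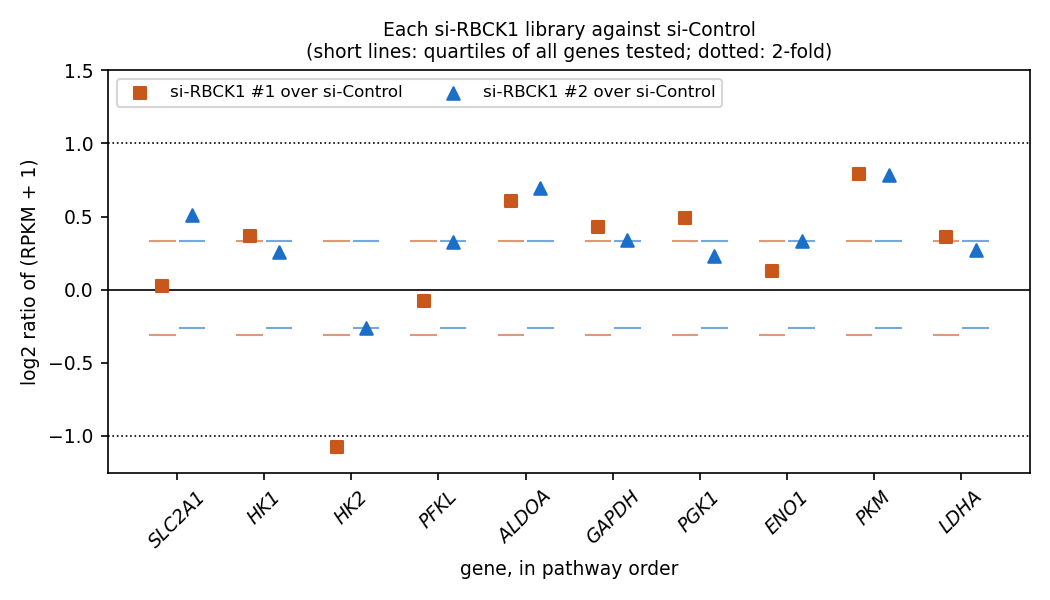
Log2 ratio of (RPKM + 1) of each si-RBCK1 library over si-Control for the 10 genes in pathway order, with short lines at the quartiles of all 12403 genes tested and dotted lines at 2-fold. *PKM*, *ALDOA* and *GAPDH* lie above the upper quartile of all genes tested with both siRNAs. *HK2* with si-RBCK1 #1 is the only point past a 2-fold line.

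The transcript of the glucose transporter differed between the siRNAs. *SLC2A1* lies on the minus strand of chromosome 1 (43391046 to 43424847, in the table's coordinates, for which the submitters' notes name hg19). It was at 28.6 RPKM under si-Control (from 3877 reads), 29.2 RPKM under si-RBCK1 #1 (from 4331 reads) and 41.2 RPKM under si-RBCK1 #2 (from 5490 reads). The si-RBCK1 #2 library alone stood high. The log2 ratios were 0.03 (counting interval -0.03 to 0.09) and 0.51 (counting interval 0.47 to 0.58). The first of these was -0.03 with equal totals and -0.23 with equal *RPLP0*. Set directly against si-RBCK1 #1, si-RBCK1 #2 was higher by 0.48 (interval on reads 0.44 to 0.55).

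The hexokinases, which phosphorylate glucose, did not go one way. *HK1*, the widely expressed form (chromosome 10, 71029756 to 71161638, plus strand), was at 29.9 RPKM under si-Control (from 5003 reads), 38.9 RPKM under si-RBCK1 #1 (from 7119 reads) and 35.97 RPKM under si-RBCK1 #2 (from 5919 reads). Both si-RBCK1 libraries lay above si-Control, with log2 ratios of 0.37 (interval 0.33 to 0.43) and 0.26 (interval 0.21 to 0.32). *HK2*, the form that many tumours raise (chromosome 2, 75059782 to 75120481, plus strand), was at 12.5 RPKM (from 3276 reads), 5.41 RPKM (from 1552 reads) and 10.3 RPKM (from 2644 reads) in the same order. It was the lowest of the 10 genes in each library, and it was lower with either siRNA than with si-Control. The level was 43.3% of si-Control with si-RBCK1 #1 and 82.0% with si-RBCK1 #2. In log2 terms this was -1.08 and -0.26, and on reads without a pseudocount -1.21 (interval -1.30 to -1.12) and -0.29 (interval -0.36 to -0.21). Of all genes tested, 2.55% had a lower ratio than *HK2* with si-RBCK1 #1. Between the siRNAs the difference was 0.81 (on reads 0.92, interval 0.83 to 1.01), the widest gap among the 10 genes.

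The ratio of *HK1* to *HK2* transcripts, in RPKM, was 2.39 with si-Control, 7.19 with si-RBCK1 #1 and 3.51 with si-RBCK1 #2. Neither was the main hexokinase transcript of these cells. *HKDC1*, a hexokinase domain gene that lies beside *HK1*, was at 90.5 RPKM, 77.8 RPKM and 78.7 RPKM and held 68.1%, 63.7% and 63.0% of the summed hexokinase RPKM. *HK1* held 22.5%, 31.8% and 28.8%, and *HK2* held 9.41%, 4.43% and 8.21%. *HK3* was at most at 0.044 RPKM. The sum over the hexokinase genes was 133 RPKM, 122 RPKM and 125 RPKM, log2 ratios of -0.12 and -0.09. It was the only step of the pathway with a sum below that of si-Control in both libraries. In RPKM, *HK1* rose by more than *HK2* fell in both libraries, so the lower sum rested on counting *HKDC1*.

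**Figure D3:**
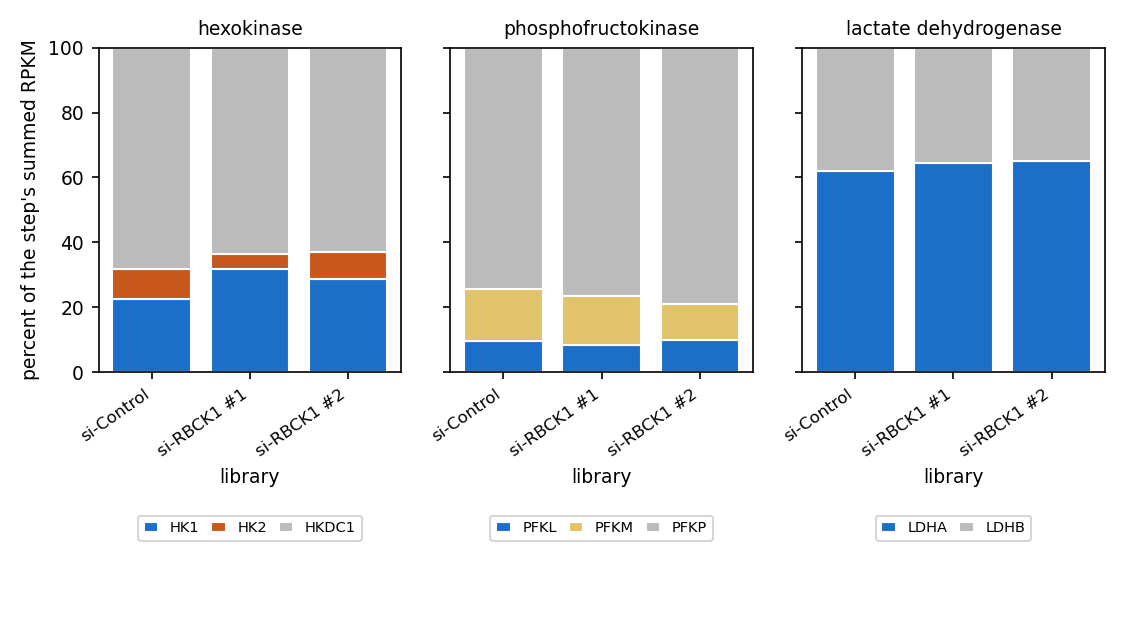
Percent of the summed RPKM of hexokinase, phosphofructokinase and lactate dehydrogenase held by each isozyme, with 1 stacked bar per library. The *HK2* share is 9.41% with si-Control and 4.43% with si-RBCK1 #1, while *LDHA* holds 62.0% to 65.0% in all libraries.

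*PFKL*, the liver type of phosphofructokinase, lies on the plus strand of chromosome 21 (45719917 to 45747264). It was at 16.7 RPKM under si-Control (from 2106 reads), 15.8 RPKM under si-RBCK1 #1 (from 2178 reads) and 21.2 RPKM under si-RBCK1 #2 (from 2631 reads). Like *SLC2A1*, it was high with si-RBCK1 #2 alone. The log2 ratios were -0.08 (interval -0.17 to 0.0044) and 0.33 (interval 0.26 to 0.43), and the former could not be told from 0 at this depth. The other isozymes were more abundant. *PFKP*, the platelet type, held 74.4%, 76.4% and 79.1% of the summed RPKM of the step, *PFKM*, the muscle type, 16.2%, 15.3% and 11.2%, and *PFKL* 9.43%, 8.27% and 9.75%. The sum had log2 ratios of 0.11 and 0.29, of which the former was -0.16 with equal *RPLP0*.

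*ALDOA*, the aldolase of muscle and most other cells, stood clearly higher with both siRNAs. On the plus strand of chromosome 16 (30064411 to 30081741), it was at 276 RPKM under si-Control (from 32875 reads), 420.4 RPKM under si-RBCK1 #1 (from 54799 reads) and 448 RPKM under si-RBCK1 #2 (from 52426 reads). That was 152% and 162% of si-Control, log2 ratios of 0.60 (interval 0.59 to 0.63) and 0.69 (interval 0.68 to 0.72). Of all genes tested, 11.3% and 7.60% had a higher ratio. *ALDOC* added little, at 2.61 to 3.33 RPKM, and *ALDOA* held at least 98.9% of the aldolase transcripts in each library.

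*GAPDH*, which makes NADH in the payoff phase and served as the loading control of the study's blots, lies on the plus strand of chromosome 12 (6643571 to 6647541). Its level was 1461 RPKM under si-Control (from 102091 reads), 1969.6 RPKM under si-RBCK1 #1 (from 150711 reads) and 1846 RPKM under si-RBCK1 #2 (from 126919 reads). The log2 ratios were 0.43 (interval 0.42 to 0.44) and 0.34 (interval 0.33 to 0.35). Against *RPLP0*, the ribosomal protein gene that served as the PCR control, *GAPDH* was at 1.41, 1.58 and 1.62, so that the 2 control transcripts did not keep 1 ratio. *RPLP0* itself had log2 ratios of 0.27 and 0.14.

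*PGK1*, which forms ATP, lies on the X chromosome from 77359666 to 77382324 on the plus strand. It was at 271 RPKM under si-Control (from 24290 reads), 381 RPKM under si-RBCK1 #1 (from 37365 reads) and 318 RPKM under si-RBCK1 #2 (from 28017 reads). Both si-RBCK1 libraries were above si-Control, and si-RBCK1 #1 stood higher than si-RBCK1 #2. The log2 ratios were 0.49 (interval 0.47 to 0.51) and 0.23 (interval 0.20 to 0.25), a difference of -0.26 for si-RBCK1 #2 over si-RBCK1 #1. *ENO1*, the enolase of most tissues (chromosome 1, 8921059 to 8939151, minus strand), showed the opposite order. It was at 618 RPKM (from 74288 reads), 676 RPKM (from 88912 reads) and 780.0 RPKM (from 92218 reads), log2 ratios of 0.13 (interval 0.11 to 0.14) and 0.33 (interval 0.32 to 0.35). The former was -0.14 with equal *RPLP0*.

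*PKM*, the pyruvate kinase gene of tumour and muscle cells, had the highest ratios of the 10 genes with both siRNAs. It lies on the minus strand of chromosome 15 (72491370 to 72523965). It was at 631 RPKM under si-Control (from 79704 reads), 1090.5 RPKM under si-RBCK1 #1 (from 150787 reads) and 1087 RPKM under si-RBCK1 #2 (from 135018 reads). The si-RBCK1 libraries were nearly level with each other, at 173% and 172% of si-Control. The log2 ratios were 0.79 (interval 0.78 to 0.80) and 0.78 (interval 0.77 to 0.80), and the difference between the siRNAs was -0.01 (interval -0.016 to 0.0054). Of all genes tested, 5.79% and 5.54% had a higher ratio. In rank among protein-coding genes *PKM* went from 84 to 41 and 38. The table has 1 row for the gene, so the PKM1 and PKM2 isoforms were not told apart. Relative to *GAPDH*, *PKM* was at 0.432, 0.554 and 0.589, and relative to *RPLP0* at 0.610, 0.875 and 0.952.

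*LDHA*, the last of the 10 genes in pathway order, lies on the plus strand of chromosome 11 (18415936 to 18429765). It was at 881 RPKM under si-Control (from 83072 reads), 1132 RPKM under si-RBCK1 #1 (from 116863 reads) and 1061 RPKM under si-RBCK1 #2 (from 98490 reads). Both si-RBCK1 libraries were higher, with log2 ratios of 0.36 (interval 0.35 to 0.37) and 0.27 (interval 0.26 to 0.28). *LDHB*, whose enzyme favours the reaction from lactate to pyruvate, was at 540 RPKM, 624 RPKM and 571 RPKM, and the ratio of *LDHA* to *LDHB* was 1.63, 1.81 and 1.86. The *LDHB* log2 ratios of 0.21 and 0.08 were both -0.06 with equal *RPLP0*.

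Reads of processed pseudogenes could be confused with those of some of these genes. The table has 43 *GAPDH* pseudogene rows, which held 75, 139 and 120 reads in the 3 libraries, at most 0.0945% of the *GAPDH* reads. For *LDHA*, 3 of 5 rows gave whole reads, and the rows left out were at most at 0.371 RPKM. Those 3 held 382, 630 and 406 reads, and for *HK2* 1 row held 47, 36 and 51 reads. Adding these reads left every log2 ratio of the 10 genes as printed to 2 decimals, except that of *HK2* with si-RBCK1 #1, which became -1.07. Genes that overlap them, on either strand, reached at most 3.91 RPKM (an RNA within an intron of *LDHA*).

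Summing the isozymes of each enzyme step gave the pathway as a whole. Of 11 steps, 10 had a summed RPKM above that of si-Control with both siRNAs. The exception was hexokinase, where the lower sum rested on *HKDC1*. Of single genes, 43.3% of all tested were above 0 in both, and 58% of those that averaged 100 RPKM or more. The sums of aldolase, GAPDH, phosphoglycerate kinase, enolase and pyruvate kinase came almost wholly from the 10 genes. The steps therefore largely repeat the values above. The highest ratios were those of pyruvate kinase (0.79 and 0.78), phosphoglycerate mutase (0.69 and 0.73) and aldolase (0.60 and 0.69). Glucose-6-phosphate isomerase had 0.52 and 0.53, and triosephosphate isomerase had 0.50 and 0.29. The lowest positive ones were phosphofructokinase (0.11) and enolase (0.12) with si-RBCK1 #1 and lactate dehydrogenase (0.20) with si-RBCK1 #2. With equal *RPLP0* the sums of phosphofructokinase and enolase with si-RBCK1 #1 were below si-Control (-0.16 and -0.15), and the sign of the other steps stayed.

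**Figure D4:**
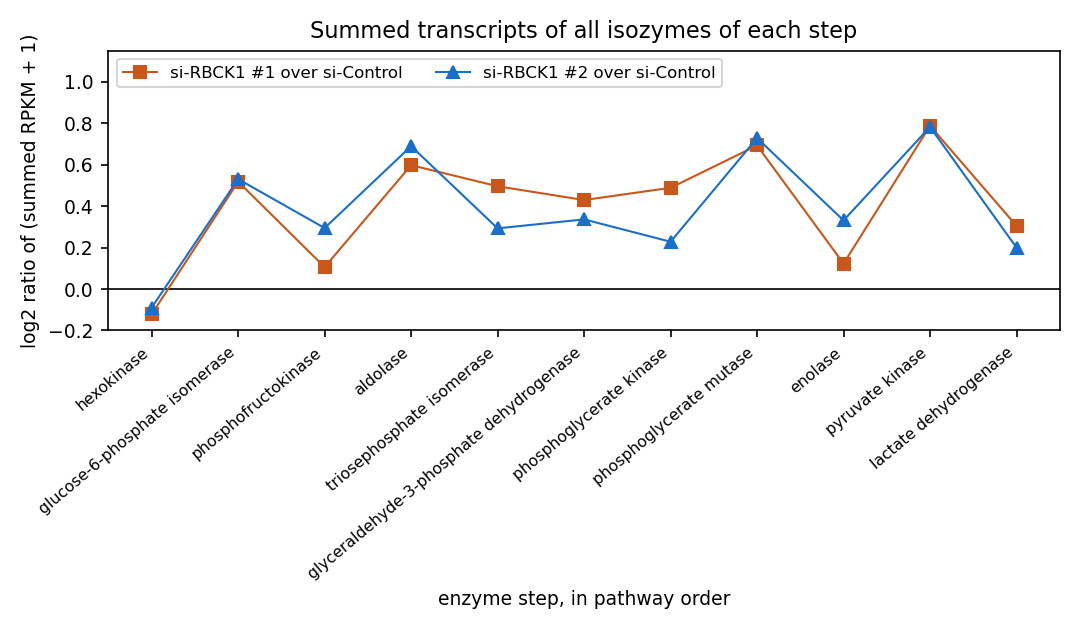
Log2 ratio of the summed RPKM (plus 1) of all isozymes of each enzyme step, in pathway order, for each si-RBCK1 library over si-Control. Hexokinase, with *HKDC1* included, is the only step below 0, and aldolase, phosphoglycerate mutase and pyruvate kinase form the peaks at 0.60 to 0.79.

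The promoters of the 10 genes were searched for letters that hypoxia-inducible factors (ACGTG and GCGTG) and MYC or carbohydrate response factors (CACGTG) are known to bind, on both strands. Each CACGTG also contains ACGTG. RefSeq promoters (GRCh38.p14, 250 bases before to 50 after each start) were found for all 10 genes, 20 promoters in all. ACGTG was in a promoter of 5 of the 10 genes, against 24.9% of all genes. GCGTG was in 8, against 40.6%, and CACGTG was in 4 (*ALDOA*, *GAPDH*, *HK2* and *LDHA*), against 8.77%. By promoter, the shares were 40% for ACGTG, 55% for GCGTG and 20% for CACGTG, against 21.4%, 36.5% and 7.26% of 35116 promoters. The 250 bases upstream of *HK2*, *LDHA* and *PKM* are shown with the matches in capitals, since *HK2* and *PKM* had the lowest and highest ratios and *LDHA* held CACGTG. A capital run CACGT is ACGTG read on the other strand.
*HK2* chr2:74833877-74834126, plus strand: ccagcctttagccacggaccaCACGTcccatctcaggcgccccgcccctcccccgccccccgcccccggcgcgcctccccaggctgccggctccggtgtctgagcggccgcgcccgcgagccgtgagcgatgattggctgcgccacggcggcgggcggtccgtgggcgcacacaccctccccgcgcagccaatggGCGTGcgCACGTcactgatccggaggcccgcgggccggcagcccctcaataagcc
*LDHA* chr11:18394313-18394562, plus strand: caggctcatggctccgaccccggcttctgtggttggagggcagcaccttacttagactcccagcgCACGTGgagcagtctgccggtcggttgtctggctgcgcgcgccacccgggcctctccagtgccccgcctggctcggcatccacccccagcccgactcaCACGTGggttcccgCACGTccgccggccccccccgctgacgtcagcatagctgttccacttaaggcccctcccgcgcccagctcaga
*PKM* chr15:72231191-72231440, minus strand: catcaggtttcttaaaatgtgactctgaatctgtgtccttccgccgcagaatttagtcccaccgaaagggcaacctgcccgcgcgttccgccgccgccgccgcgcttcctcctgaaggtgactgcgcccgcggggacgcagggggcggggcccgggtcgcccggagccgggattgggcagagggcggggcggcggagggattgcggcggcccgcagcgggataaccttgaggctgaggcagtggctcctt
The *LDHA* stretch held CACGTG at 2 places and ACGTG on the other strand at 1 more. The *HK2* stretch held ACGTG at 2 places and GCGTG at 1, and CACGTG lay in the other *HK2* promoter. The *PKM* stretch held none of the 3 motifs, and its GCGTG lay in the bases after the start. The letters alone say nothing of binding.

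The other genes of glucose metabolism were taken from 11 lists of 128 genes, of which 95 passed the filter. Their median log2 ratios were -0.03 with si-RBCK1 #1 and 0.05 with si-RBCK1 #2, near those of all genes tested. By the 2-fold limit, 5 were lower with si-RBCK1 #1 and 2 with si-RBCK1 #2, against 3.27% and 2.27% of all genes. None (0) were higher in either, against 2.91% and 2.5% of all genes. With the pseudocount of 1 RPKM, *TXNIP* was the 1 gene at least 2-fold lower in both libraries, where 1.41% of all genes were. *SLC16A7* and *PCK2* missed the limit only through the pseudocount. Without it, they too were at least 2-fold lower in both libraries. At 1.5-fold, 4 genes were higher and 9 lower in both, against 7.47% and 6.24% of all genes.

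**Figure D5:**
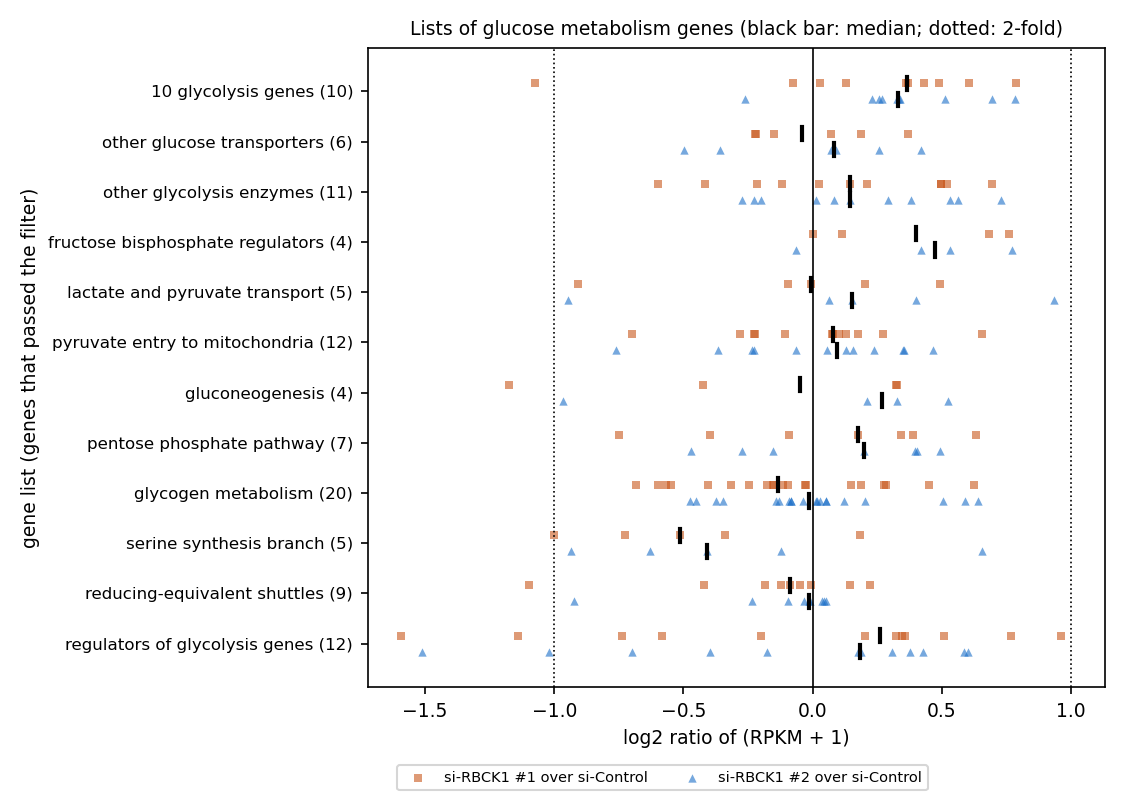
Log2 ratios of (RPKM + 1) over si-Control for the 10 genes (top) and for the genes of 11 further lists that passed the filter, 1 point per gene and library, with black bars at the medians and dotted lines at 2-fold. The 10 genes have medians of 0.36 and 0.33, and the 5 genes of the serine synthesis branch have -0.51 and -0.41.

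Among the other glucose transporters, 6 of 14 passed the filter, with medians of -0.04 and 0.08 (means of 0.0048 and -0.0031, opposite in sign, and medians of -0.22 and -0.03 with equal *RPLP0*). *SLC2A3*, the neuronal type GLUT3 and the one with the highest mean level, was at 9.89 RPKM under si-Control, 13.05 RPKM under si-RBCK1 #1 and 6.71 RPKM under si-RBCK1 #2. It therefore lay on opposite sides of si-Control in the si-RBCK1 libraries, and the opposite way from *SLC2A1* between them. Of the other enzymes of glycolysis, 11 of 19 passed, with a median of 0.14 in both libraries (-0.12 with si-RBCK1 #1 at equal *RPLP0*). *PGAM1*, the phosphoglycerate mutase of most tissues, was at 225 RPKM, 365 RPKM and 374 RPKM, log2 ratios of 0.69 and 0.73. It was the 1 gene of that list at least 1.5-fold higher in both.

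The enzymes that set fructose 2,6-bisphosphate, the activator of phosphofructokinase, had medians of 0.40 and 0.47 over 4 of 5 genes that passed. *PFKFB3*, whose enzyme mainly makes this activator, was at 34.99 RPKM, 59.9 RPKM and 60.5 RPKM, log2 ratios of 0.76 and 0.77. That was 171% and 173% of si-Control, and the ratios were close to those of *PKM*. For export of the product, *SLC16A3*, the lactate exporter MCT4, was at 127 RPKM, 179.6 RPKM and 244 RPKM (0.49 and 0.93), and *SLC16A7*, the transporter MCT2, was at 6.99 RPKM, 3.26 RPKM and 3.15 RPKM (-0.91 and -0.95). The 5 of 6 genes of lactate and pyruvate transport that passed had medians of -0.01 and 0.15 (means of -0.06 and 0.12).

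For pyruvate entry to mitochondria, 12 of 14 genes passed and the medians were 0.08 and 0.09 (-0.16 and -0.03 with equal *RPLP0*, and the mean with si-RBCK1 #1 was -0.0042). *PDK1*, a kinase that shuts pyruvate dehydrogenase and a known hypoxia target, was at 5.86 RPKM, 3.23 RPKM and 3.05 RPKM (-0.70 and -0.76). It was lower in both libraries, unlike *PKM*, whose enzyme makes the pyruvate. *DLD*, the gene of that list with the highest mean level, was at 44.9 RPKM, 36.8 RPKM and 38.3 RPKM. Of the gluconeogenesis genes, which run the pathway in reverse, 4 of 8 passed, with medians of -0.05 and 0.27. *PCK2*, the mitochondrial phosphoenolpyruvate carboxykinase, was at 14.9 RPKM, 6.05 RPKM and 7.15 RPKM (-1.18 and -0.97).

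The pentose phosphate pathway, which branches off at glucose 6-phosphate, had all 7 genes pass with medians of 0.18 and 0.20 (-0.09 with si-RBCK1 #1 at equal *RPLP0*), and *TALDO1* was its most abundant gene (158 RPKM, 199.6 RPKM and 181 RPKM). Glycogen metabolism had 20 of 25 genes pass, with medians of -0.13 and -0.01. *PYGB*, its most abundant gene, a glycogen phosphorylase, was at 80.9 RPKM, 60.9 RPKM and 73.3 RPKM, and *PPP1R3D*, a glycogen-targeting phosphatase subunit, was at 2.20 RPKM, 3.92 RPKM and 3.98 RPKM (0.62 and 0.64). *PPP1R3D* shares its locus with *FAM217B* on the other strand, at 2.90 RPKM, 3.94 RPKM and 6.33 RPKM.

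The serine synthesis branch, which draws 3-phosphoglycerate from the middle of glycolysis, stood lowest, with medians of -0.51 and -0.41 over 5 genes. Of these, 4 were lower in both libraries, against 38.2% of all genes. *PSAT1* was at 124 RPKM, 61.6 RPKM and 64.4 RPKM, just past the 2-fold limit with si-RBCK1 #1 and at a log2 ratio of -0.94 with si-RBCK1 #2, and *PHGDH*, the enzyme of the first step, was at 83.5 RPKM, 50.04 RPKM and 53.6 RPKM (-0.73 and -0.63). These lie on the opposite side of si-Control from *PGK1* and *PGAM1*, which act just before and after the branch point. Of the shuttles that carry reducing equivalents from cytosolic NADH, 9 of 10 genes passed, with medians of -0.09 and -0.01. *GOT1*, the cytosolic aspartate aminotransferase, was at 66.1 RPKM, 30.3 RPKM and 34.3 RPKM (-1.10 and -0.93), while *GOT2*, its mitochondrial partner, was at 84.3 RPKM, 98.5 RPKM and 82.4 RPKM.

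Among 12 of 15 genes that regulate glycolysis genes and passed, the medians were 0.26 and 0.18, and the means were -0.07 and -0.10, opposite in sign, with *TXNIP* lowest in both. *HIF1A*, the hypoxia-inducible factor subunit, was at 171 RPKM, 77.2 RPKM and 105 RPKM (-1.14 and -0.70). *TXNIP*, an inhibitor of glucose uptake that glucose itself induces through MLX and its partners, was at 194 RPKM, 63.6 RPKM and 67.3 RPKM (-1.59 and -1.51). *ARRDC4*, its relative, was at 11.1 RPKM, 6.26 RPKM and 4.97 RPKM (-0.74 and -1.02). *MLX* was the other way, at 11.8 RPKM, 20.8 RPKM and 18.4 RPKM (0.77 and 0.60). *MYC*, the gene of that list with the highest mean level, was at 143 RPKM, 124 RPKM and 126 RPKM. *HIF1A*, *PYGB* and *MLX* overlap genes on the other strand, which reached at most 3.87 RPKM, 16.7 RPKM and 7.12 RPKM, and whether strand was used in counting is not given in the sources used here.

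By distance between pairs of log2 ratios, the list genes near the median pair of the 10 genes included *G6PC3* (0.32 and 0.33, distance 0.042) and *VHL* (0.32 and 0.43, distance 0.11). This rests on 2 ratios that share si-Control. *G6PC3*, a widely expressed glucose 6-phosphatase, was at 39.7 RPKM, 49.9 RPKM and 50.1 RPKM.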

How the data were processed

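RNA of Caki-1 cells was sequenced after siRNA treatment with the control or either RBCK1 siRNA, 1 library per group (3 in all). Groups were taken from the sample titles. Per the labels, ribosomal RNA was removed and a directional kit and paired-end Illumina HiSeq sequencing at RiboBio were used, while the methods name the platform of the Beijing Genomic Institute. The submitters' processing notes name FastQC, Trimmomatic, TopHat2, HTSeq and hg19. The gene annotation is not given in the sources used here.

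The table deposited by the authors lists 44591 genes, each with its RPKM in every library, and 5 columns with their own comparison (control, treated, log2 fold change, p-value, q-value), which were not used. From the RPKM values, library totals were found from genes of at most 200 nt, and for each gene the smallest whole reads that give its 3 values (within 0.0005 reads) were taken. Log2 ratios used a pseudocount of 1 RPKM and a mean of at least 1 RPKM (12403 genes, and 1 entry that is not a number left out). Intervals (95%) were exact Poisson for levels and exact Clopper-Pearson for ratios. They were computed on reads without a pseudocount and cover counting error only, with no differences between cultures.

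The 10 genes and the lists were chosen with earlier results of these data known. Of the lists, genes named were those at least 2-fold changed in the same direction in both libraries, the highest in each list, those at least 1.5-fold changed in the same direction in both, and the 3 nearest to the median of the 10 genes. Other isozymes of the steps of the 10 genes were named with them. Some genes these rules name are not reported here. Alternatives were pseudocounts of 0.1 and 5 RPKM, scaling to equal medians, totals or *RPLP0*, dropping the filter or raising it to 5 RPKM, means, added pseudogene reads and a 1.5-fold limit. Steps were tested on simulated data. Software was Python 3.11.15 with matplotlib 3.10.9, scipy 1.17.1, pandas 2.3.3 and numpy 2.4.6.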

Additional observations from a re-analysis of the deposited data

Results flagged for a closer look

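Of the 10 genes and the list genes named by rule, those that lay on opposite sides of si-Control in the si-RBCK1 libraries are given. With 1 library per siRNA, the difference between the siRNAs was not tested. *PFKL* had log2 ratios of -0.08 (si-RBCK1 #1) and 0.33 (the other siRNA), a difference of 0.40, and the counting interval of the former reached from -0.17 to 0.0044. *SLC2A3* had 0.37 and -0.50, a difference of -0.86. On reads without a pseudocount it had 0.40 (counting interval 0.30 to 0.50) and -0.56 (-0.68 to -0.44). *GOT2* had 0.22 and -0.03, a difference of -0.25, and the counting interval with si-RBCK1 #2 (-0.08 to 0.01) included 0. With equal *RPLP0*, *GOT2* was lower with both siRNAs (-0.04 and -0.17). *PC* and *SLC25A13* lay outside the naming rule and were chosen after their values were seen. *PC* (pyruvate carboxylase) had -0.42 and 0.21. On reads without a pseudocount it had -0.54 (counting interval -0.71 to -0.37) and 0.25 (0.11 to 0.40). *SLC25A13*, a mitochondrial aspartate-glutamate carrier, had 0.14 (counting interval 0.08 to 0.22) and -0.23 (-0.32 to -0.17), and was lower with both at equal *RPLP0* (-0.11 and -0.37).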

How the results depend on the processing

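No paired analysis was possible because the groups held 1 library each. Leaving out a library was not possible for the same reason, so these values describe 3 libraries only. The median log2 ratio of the 10 genes stayed above 0 under all alternatives. It was 0.31 with equal totals, 0.10 with equal *RPLP0* and 0.20 as a mean for si-RBCK1 #1. For si-RBCK1 #2 it was 0.28 with equal medians, 0.30 with equal totals and 0.19 with equal *RPLP0*. The number of the 10 genes past the limit with si-RBCK1 #1 was 0 with a pseudocount of 5 RPKM, which weighs most on *HK2*, the gene with the lowest level. At 1.5-fold it was 3 and 2 for the single libraries and 2 for both, as a looser limit must give. The median over the 11 lists was -0.28 and -0.083 with equal *RPLP0*. The number of list genes past the limit (si-RBCK1 #1, si-RBCK1 #2 and both) was 21, 17 and 13 of 95 at 1.5-fold. Of all genes tested, 23.7%, 20.6% and 13.7% passed it. With a pseudocount of 5 RPKM it was 3 for si-RBCK1 #1 and 1 for the other library. With 0.1 RPKM it was 4 for si-RBCK1 #2 and 3 for both, with equal *RPLP0* 6 and 5, and for both with equal medians 2. Otherwise the cause was not tested. Of the other values, on single genes and lists, 445 stayed within the counting interval or the limit of 1.5 times and 135 moved beyond it. The alternatives with genes of at least 100 RPKM and with reads without a pseudocount were chosen after seeing the data.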
